A study of Mus musculus with 10 samples.

Results

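The dystrophin-glycoprotein complex was examined through 9 genes: Dmd, Utrn, Dag1, Sgca, Sgcb, Sgcd, Sntb1, Dtna and Lama2. They were taken by name, as every non-control probe whose gene name on the array equals one of these symbols, which gave 22 probes of the 55681 on the array and 9 of its 34608 names. Of the 9 genes, 6 were well above background on all 10 scans and entered the test, and Dmd, Sntb1 and Dtna did not. Sgca, Dag1 and Lama2 were lower with the miR-142-3p mimic, no gene was higher, and Utrn, Sgcb and Sgcd did not pass the test.

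The cells were C2C12, an immortalised mouse myoblast line that leaves the cell cycle, expresses muscle proteins and fuses into myotubes when it differentiates. One group received a mirVana mimic of miR-142-3p and the other a scrambled sequence, both at 150 nM with a Lipofectamine lipid reagent in cultures kept in serum-containing growth medium, and RNA was taken after 72 hours. The labels name no other difference between the groups, except an unexplained re-analysis remark in the scramble titles. All samples are of 1 cell line, and the stated transfection efficiency was about 60%, so not all cells of a sample took up the RNA. From 150 ng of RNA, Cy3-labelled cRNA was hybridised to 1-colour Agilent arrays of 60-base probes. The labels list 6 mimic and 4 scramble samples as independent transfections, but the file headers place them on 5 positions of 1 slide, each scanned on 2 days, so both scans of a position were combined into 1 value and n is 3 mimic and 2 scramble arrays. The p-values therefore reflect only how much these 5 arrays vary, some of which can be technical, and the number of arrays limits the precision.

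Dystrophin is a long rod-shaped protein under the muscle membrane that binds cortical actin at one end and dystroglycan at the other, and utrophin is its autosomal relative, which can take the same place. Dag1 encodes the precursor that is cut into alpha-dystroglycan, a heavily glycosylated receptor for laminin outside the cell, and beta-dystroglycan, which spans the membrane. The sarcoglycans form a separate membrane unit that stabilises this link, the syntrophins and dystrobrevins bind dystrophin inside the cell as signalling adaptors, and Lama2 encodes the laminin alpha chain of the muscle basement membrane. Loss of dystrophin, of alpha-, beta- or delta-sarcoglycan or of laminin alpha-2 causes muscular dystrophy.

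The transfected RNA is named after mmu-miR-142a-3p, which RefSeq places on the plus strand of GRCm38.p6 at chr11:87756903-87756925. The capitals mark the seed, bases 2 to 8, the stretch through which a microRNA chiefly recognises its targets. The labels do not print the sequence of the mimic itself, and seed matches in the transcripts of the 9 genes were not analysed here.
mmu-miR-142a-3p: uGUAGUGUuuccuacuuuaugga

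Signal is given as log2 of the scanner's processed signal minus the scan's 75th percentile, so 0 is the 75th percentile of that scan and 1 unit is a doubling. The share of spots well above background ranged from 25.4% to 34.6% between scans. Over all 13678 genes tested with limma, 1332 had a Benjamini-Hochberg adjusted p below 0.05, namely 530 lower and 802 higher ones, so 3.87% of genes were called lower with the mimic, 5.86% higher and 9.74% in either direction. The count was 641 to 672 without 1 of the mimic arrays and 3671 without scramble array 1. The median difference of all genes was 0.09, and it was −0.04 when the percentile came from the probes that exceeded background on all scans and 0.18 after scaling to the array median. In bulk RNA, fewer cells of a type and less RNA per cell cannot be told apart.

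Dystroglycan fell. Its single probe, in mm9 at chr9:108108491-108108550 on the minus strand, read 2.01, 1.88 and 1.85 on the 3 mimic arrays and 3.28 and 3.88 on the 2 scramble arrays. All 3 mimic arrays lay more than 1 unit below the lower scramble array. The means were 1.91 ± 0.08 (SD, n = 3) and 3.58 ± 0.42 (SD, n = 2), a difference of −1.67 (SE 0.23) or 3.18-fold lower signal (95% limits 2.19 to 4.61; adjusted p = 0.00306, limma). Of all genes tested, 1.48% had a more negative difference. Within the slide's first row the Dag1 difference was −1.35 and within the second −2.0, and on the first and second scan day it was −1.55 and −1.79. The call was kept in 20 of 21 alternatives and lost without a filter on dim probes (adjusted p = 0.0521, limma).

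The sarcoglycans did not move as one. Sgca, alpha-sarcoglycan, whose expression is restricted to striated muscle, fell the most of the 6 tested genes. Its main probe, at chr11:94824124-94824183 on the minus strand of mm9, read 0.42, 0.59 and 0.34 with the mimic and 3.11 and 3.09 with the scramble. The groups were far apart and each was tight, with 0.45 ± 0.13 (SD, n = 3) against 3.1 ± 0.01 (SD, n = 2). The difference was −2.65 (SE 0.20), a 6.27-fold lower signal (95% limits 4.59 to 8.57; adjusted p = 0.000126, limma), and 0.731% of genes had a more negative one. A second Sgca probe, 301 bases nearer the start of the transcript at chr11:94824546-94824605, read −0.17, 0.27 and −0.20 against 2.46 and 2.86, a difference of −2.69 (adjusted p = 0.000325 over all probes, limma). Both Sgca probes fell by a similar amount. The main probe's difference was −2.73 and −2.50 within the slide's rows, and −2.47 and −2.82 on the scan days.

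Sgcb, beta-sarcoglycan, which is also made outside muscle, did not pass the test. The probe at chr5:74026579-74026638 (mm9, minus strand) read 3.41, 3.67 and 3.33 with the mimic and 4.46 and 3.72 with the scramble. Mimic array 2 nearly reached scramble array 2, although the groups did not overlap. The means of 3.47 ± 0.18 (SD, n = 3) and 4.09 ± 0.52 (SD, n = 2) differed by −0.62 (SE 0.26, 95% limits −1.22 to −0.02; adjusted p = 0.187, limma). The scramble arrays disagreed here: within the slide's first row the Sgcb difference was −1.09, and within the second −0.05. Without scramble array 2 it was −0.99 with an adjusted p of 0.0460 (limma, with the lone scramble array assumed to vary like the others), and without scramble array 1 it was −0.25.

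The other Sgcb probes showed the same split between the scramble arrays. The probe at transcript position 1141 read 2.74, 3.23 and 2.94 against 3.90 and 3.09, and its groups overlapped, with a difference of −0.53 (adjusted p = 0.291 over all probes, limma). The probe at position 2728 read 1.52, 1.85 and 1.69 against 2.91 and 2.26, with no overlap and a difference of −0.90 (adjusted p = 0.0614 over all probes, limma).

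Sgcd, delta-sarcoglycan, did not pass the test. Its probe at chr11:46939058-46939117 (mm9, minus strand) read −0.09, 0.03 and −0.22 with the mimic and −0.20 and −0.07 with the scramble. The groups overlapped fully, and the difference was 0.04 (SE 0.20, 95% limits −0.41 to 0.49; adjusted p = 0.929, limma). Its sign turned to −0.10 when scans were scaled on the probes above background on all scans. The other 2 Sgcd probes, at transcript positions 653 and 2358, were well above background on 1 scan and on no scan.

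For the related proteins inside the membrane, RNA of utrophin gave a signal above background and RNA of dystrophin did not. The Utrn probe at chr10:12221228-12221287 (mm9, minus strand) read 0.98, 0.74 and 0.52 with the mimic and 0.87 and 1.20 with the scramble. The groups overlapped, with means of 0.75 ± 0.23 (SD, n = 3) and 1.04 ± 0.23 (SD, n = 2) and a difference of −0.29 (SE 0.23, 95% limits −0.81 to 0.23; adjusted p = 0.465, limma). These limits still allow a fall of up to 1.75-fold. The second Utrn probe, against a predicted transcript, was well above background on no scan.

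None of the 5 Dmd probes was well above background on any of the 10 scans, in either group. They lie at different places along the gene on the X chromosome, between mm9 positions 80596782 and 82451480. The brightest, at chrX:80596782-80596841, read −2.45, −2.13 and −3.22 with the mimic and −2.59 and −2.71 with the scramble. These are readings at background and set no level for dystrophin RNA in either group. The Utrn probe that gave a signal and 2 of the Dmd probes that gave none are printed here as they stand on the array, since this contrast between the relatives rests on what these 60 bases capture.
Utrn, transcript position 7910: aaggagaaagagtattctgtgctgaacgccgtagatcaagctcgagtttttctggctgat
Dmd, transcript position 450: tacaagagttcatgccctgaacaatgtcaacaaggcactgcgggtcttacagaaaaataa
Dmd, transcript position 4942: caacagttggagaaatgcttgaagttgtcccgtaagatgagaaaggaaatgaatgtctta

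The adaptors were dim. Sntb1, beta-1-syntrophin, had 2 probes that were above background on no mimic scan and on only part of the scramble scans. The brighter one, at chr15:55623590-55623649 (mm9, minus strand), read −2.22, −1.27 and −1.36 with the mimic and −0.80 and −0.13 with the scramble, where 3 of 4 scans were well above background. Its signal was at least 1.60-fold lower with the mimic, a bound in which each mimic array enters with the detection limit (the dimmest probe well above background there) or the probe's own reading, whichever is higher. The second probe, at chr15:55470721-55470780, read −2.39, −2.55 and −3.07 against −1.33 and −0.14, with 2 of 4 scramble scans well above background. By the same bound it was at least 1.43-fold lower. That bound uses the mean of 2 scramble arrays that disagreed, at −1.33 and −0.14. It rests on scramble array 2 and does not hold for scramble array 1 taken alone. Neither probe was kept for the test. In the fit without a filter, where the brightest probe stood for each of 34608 names, Sntb1 differed by −1.15 (SE 0.40; adjusted p = 0.387, limma).

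Dtna, alpha-dystrobrevin, had 1 probe that exceeded background on 1 mimic and 1 scramble scan and another that did so on no scan. The first, at transcript position 817, read −1.32, −2.45 and −1.49 with the mimic and −0.98 and −0.83 with the scramble. The mimic arrays were all lower, but near background in both groups. In the same unfiltered fit the difference of this Dtna probe was −0.85 (SE 0.40; adjusted p = 0.646, limma).

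The extracellular ligand fell as well. The main Lama2 probe, at chr10:26701380-26701439 (mm9, minus strand), read 2.62, 2.59 and 2.59 with the mimic and 3.67 and 3.47 with the scramble. The mimic arrays were nearly identical and all below both scramble arrays, with 2.60 ± 0.02 (SD, n = 3) against 3.57 ± 0.14 (SD, n = 2). The difference was −0.97 (SE 0.19), a 1.96-fold lower signal (95% limits 1.44 to 2.66; adjusted p = 0.0172, limma). The second Lama2 probe, 126 bases further along the transcript, read 1.89, 1.77 and 1.95 against 2.83 and 2.38. It was lower on every mimic array by a difference of −0.74, which did not pass the test (adjusted p = 0.0745 over all probes, limma). The call of the main probe was lost without any 1 mimic array (adjusted p = 0.0698 to 0.0813), with scans scaled to their median (0.300) and with dim probes included (0.274), while its difference stayed between −1.11 and −0.85 in all 21 alternatives run.

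**Figure D1:**
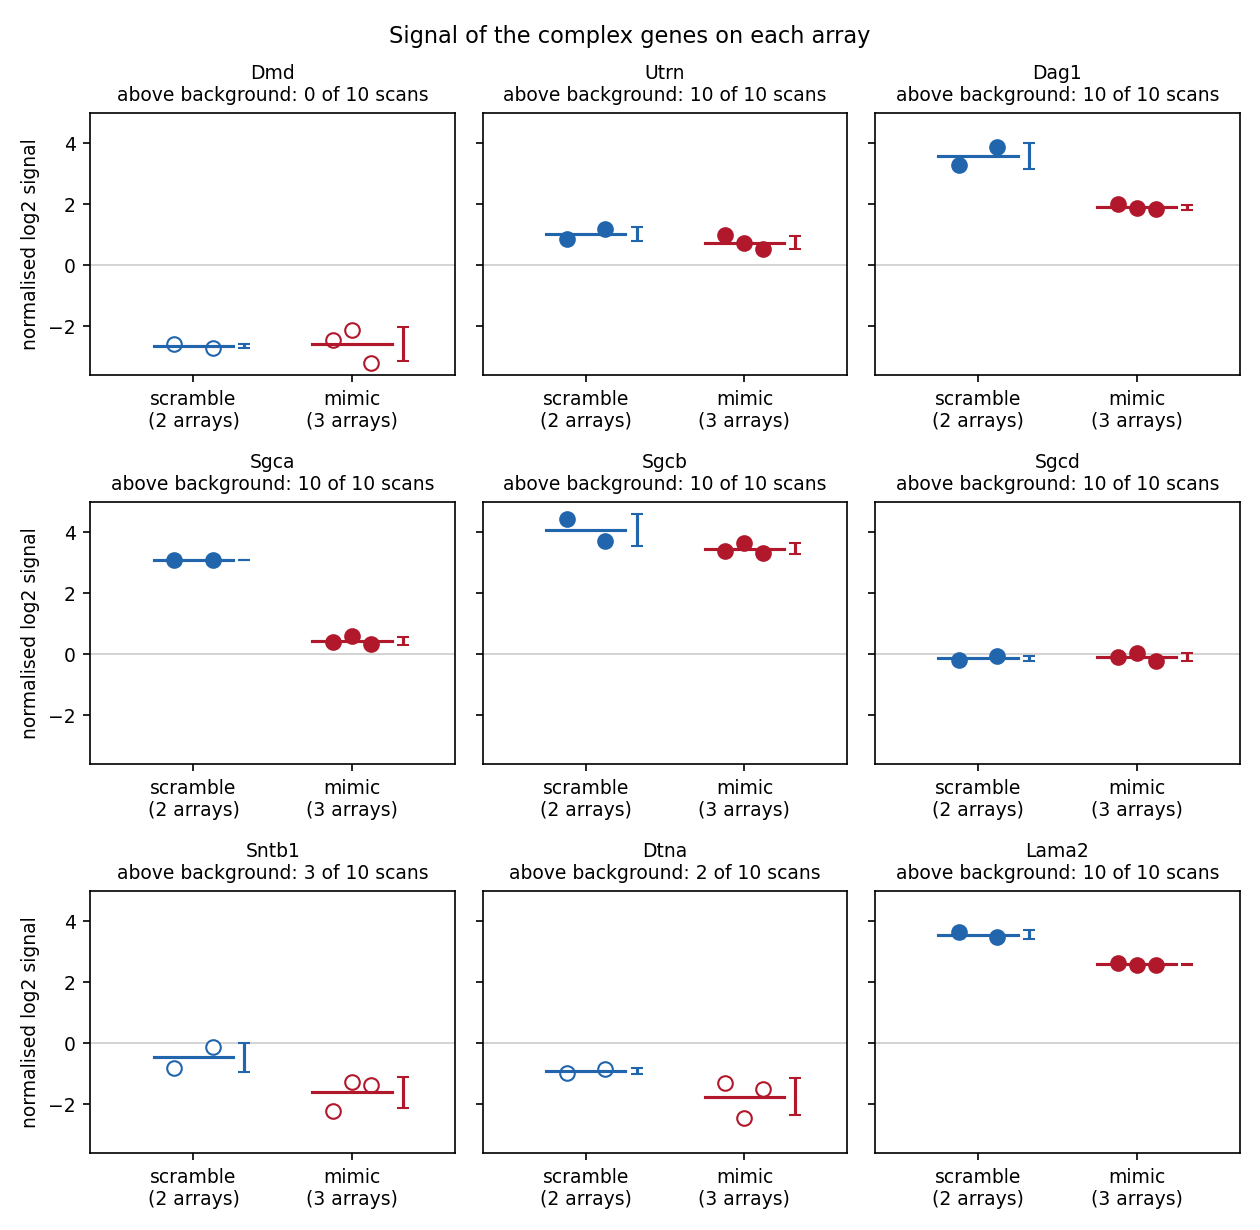
Normalised log2 signal of each of the 9 genes on the 2 scramble arrays (blue) and the 3 mimic arrays (red), for the probe that stands for the gene or, where none was kept, its brightest probe (open circles). Lines are group means, bars beside them are 1 SD, and each title counts the scans on which the probe was well above background. The mimic arrays of Sgca lie between 0.34 and 0.59 against 3.09 and 3.11 with the scramble, while those of Utrn and Sgcd overlap with the scramble arrays.

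Counted over genes, 3 of the 6 tested members were called lower, against 3.87% of all genes, and 0 higher, against 5.86%. In 4 of the 6 (Dag1, Sgca, Sgcb and Lama2) every mimic array was below every scramble array, which held for 16.7% of all genes. Counted over probes, 10 of the 22 were kept and 4 of these were called lower, against 4.08% of all kept probes. In 7 of the 10 every mimic array was below every scramble array, against 18.1% of all kept probes. Probes of 1 gene share their transcript and are not independent measurements. The order of the fitted differences was Sgca, Dag1, Lama2, Sgcb, Utrn and Sgcd, and the 95% limits of each overlapped with those of its neighbour in this order, for Sgca and Dag1 only at the edge. Differences between neighbours were not tested.

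**Figure D2:**
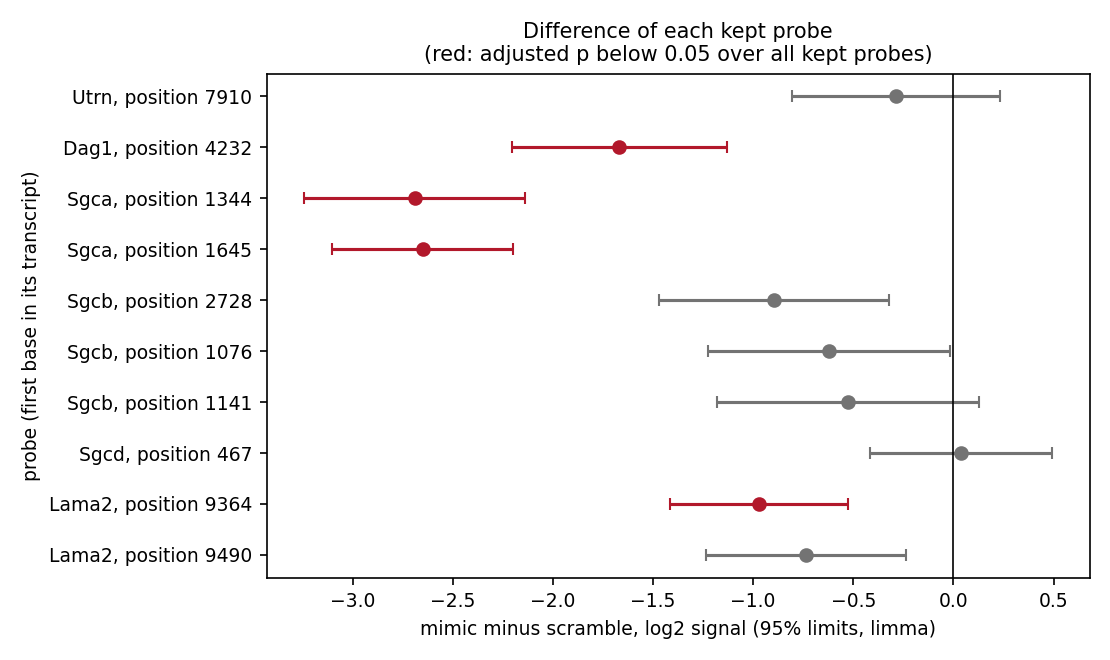
Difference in log2 signal, mimic minus scramble, of each of the 10 kept probes, with 95% limits from limma on the horizontal axis and the probe's first base in its transcript on the vertical axis. Red marks an adjusted p below 0.05 over all kept probes. The Sgca probes at positions 1344 and 1645 lie at −2.69 and −2.65, and the 3 Sgcb probes lie between −0.90 and −0.53.

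**Figure D3:**
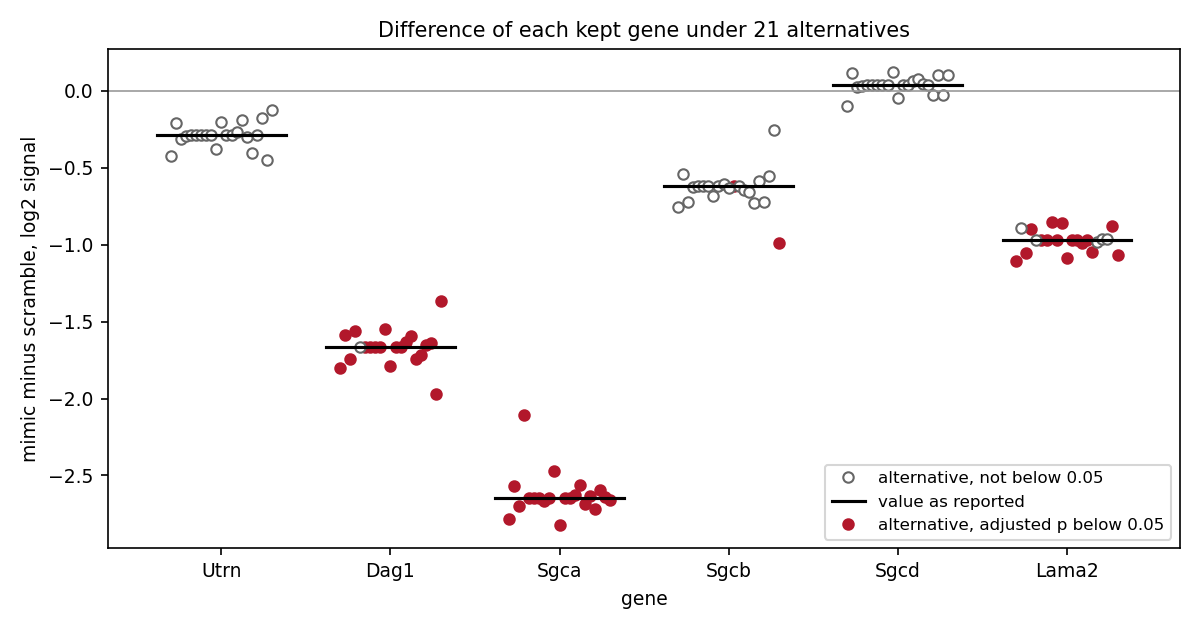
Fitted difference in log2 signal of the 6 tested genes under 21 alternative settings, such as other scalings, filters, scan days and arrays left out (points), beside the value as reported (black line). Red points have an adjusted p below 0.05. Sgca stays between −2.82 and −2.11 and was called in all 21, Dag1 stays between −1.97 and −1.37, and the points of Sgcd lie on both sides of 0.

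Promoter windows are shown for the 3 genes that fell and for Utrn, which did not pass the test. Each runs from 250 bases before to 50 after the annotated start in RefSeq on GRCm38.p6, a different build from that of the probe coordinates. Capitals mark the E-box CANNTG, the motif family bound by myogenic and other helix-loop-helix factors, searched on both strands, with overlapping matches counted separately. The windows lie on the minus strand at chr11:94976278-94976577 for Sgca, chr9:108263909-108264208 for Dag1 (the first of its 2 windows), chr10:27616893-27617192 for Lama2 and chr10:12861686-12861985 for Utrn.
Sgca: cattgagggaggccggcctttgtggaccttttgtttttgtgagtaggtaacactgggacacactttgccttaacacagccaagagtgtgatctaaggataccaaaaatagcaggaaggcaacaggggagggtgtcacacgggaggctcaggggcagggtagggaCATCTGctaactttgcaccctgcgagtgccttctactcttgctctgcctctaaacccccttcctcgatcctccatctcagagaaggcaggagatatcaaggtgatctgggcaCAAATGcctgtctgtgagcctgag
Dag1: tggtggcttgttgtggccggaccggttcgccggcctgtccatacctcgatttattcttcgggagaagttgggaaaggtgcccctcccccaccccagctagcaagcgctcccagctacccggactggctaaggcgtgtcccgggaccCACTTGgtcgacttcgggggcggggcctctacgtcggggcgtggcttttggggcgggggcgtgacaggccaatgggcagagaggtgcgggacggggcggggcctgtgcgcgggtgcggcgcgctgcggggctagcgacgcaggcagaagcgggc
Lama2: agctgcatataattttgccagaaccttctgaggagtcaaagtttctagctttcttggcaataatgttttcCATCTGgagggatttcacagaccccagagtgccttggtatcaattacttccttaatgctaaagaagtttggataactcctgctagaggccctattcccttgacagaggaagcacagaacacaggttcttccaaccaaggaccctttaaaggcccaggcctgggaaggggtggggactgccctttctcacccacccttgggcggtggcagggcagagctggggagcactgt
Utrn: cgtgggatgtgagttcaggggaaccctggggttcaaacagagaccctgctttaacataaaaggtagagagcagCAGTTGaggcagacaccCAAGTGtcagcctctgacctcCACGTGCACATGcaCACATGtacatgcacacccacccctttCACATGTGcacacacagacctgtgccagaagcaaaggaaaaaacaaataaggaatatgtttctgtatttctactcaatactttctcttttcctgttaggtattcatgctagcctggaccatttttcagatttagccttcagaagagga

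Sgca had 2 E-boxes, at −86 and 26 from the start site, Dag1 had 1 at −104 and Lama2 had 1 at −180, while Utrn had 7. An E-box of these letters is found in 72.3% of the 32851 mouse promoter windows of 300 bases, so its presence sets none of the genes apart. The narrower form CAGCTG, in 16.3% of all windows, and the MEF2-type motif (CTA and TAG with 4 bases between), in 3.69%, were found in no window of the 7 genes with an entry. The pattern searched as CArG type was CC and GG with any 6 bases between. It is wider than the CArG box, whose 6 bases are A or T, and was found in 73.3% of all windows. This wide pattern had 7 matches in Lama2, 3 in Sgcb, 1 and 2 in the windows of Dmd and 1 in the first window of Dag1. These are not counts of CArG boxes. These are matches of letters in short windows, and no binding was measured.

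The related genes were followed through a list of 69 genes, of which 56 were tested. Of these, 10 were lower (17.9%, against 3.87% of all genes), 3 were higher (against 5.86% of all genes) and 43 passed in neither direction. The counts include Itgb1bp2 among the lower and Itgb4 among the higher genes, each of which passed the filter through the scans of 1 group alone. Instead of 13, 8 were called without mimic array 1 and 25 without scramble array 1. The list's median difference was −0.21, beside 0.09 over all genes. Every called gene named below had no overlap between the groups. Over all genes, every mimic array lay below every scramble array in 16.7% and above every scramble array in 25.9%. A lack of overlap is therefore no separate support for a call.

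Among the other subunits, Sspn, sarcospan, the small membrane protein that accompanies the sarcoglycans, fell. It read 3.17, 3.69 and 3.24 with the mimic and 4.89 and 4.39 with the scramble, a 2.42-fold lower signal (adjusted p = 0.0175, limma). All 3 mimic arrays were below both scramble arrays. The Sspn call was lost in 5 of 21 alternatives, among them leaving out mimic array 1 or mimic array 3. Sgce, the epsilon-sarcoglycan found in many tissues, differed by 0.32 and did not pass the test. Nor did Drp2, Dtnb and Sntb2, with differences of −0.60, 0.41 and 0.79. Sgcz, Sntg1 and Sntg2 were not kept.

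Of the enzymes that build the laminin-binding glycan on dystroglycan, 15 were tested, with a median difference of 0.06. Pomt1, which helps to add the first mannose of that glycan, differed by 0.23 and did not pass the test (adjusted p = 0.611, limma).

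Of 14 tested ligands and basement membrane genes, 2 fell and 1 rose, beside shares of 3.87% lower and 5.86% higher over all genes, which also stand behind the counts of the next groups. A single gene called higher in such a group is near that background. Nid2 fell 3.81-fold (adjusted p = 0.000683, limma), with 0.44, 0.29 and 0.61 against 2.27 and 2.48. Its relative Nid1, which like Nid2 joins laminin to collagen IV, was 2.16-fold higher (adjusted p = 0.0197, limma), with 5.90, 6.24 and 6.08 against 5.19 and 4.72. The Nid1 call was lost in 9 of 21 alternatives, among them leaving out any 1 mimic array or scramble array 2. Col6a2, a collagen VI chain, fell 3.44-fold (adjusted p = 0.00817, limma), and its scramble arrays differed widely, at 2.76 and 3.79. The Col6a2 call was lost without a filter on dim probes. The laminin chains Lamb1 and Lamc1, possible partners of laminin alpha-2, differed by 0.32 and −0.29 and did not pass the test.

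Among 10 tested linkers, signalling and membrane repair genes, 3 fell and 1 rose. Trim72, which gathers repair vesicles at membrane wounds, was lower by a fitted 3.83-fold (adjusted p = 0.000735, limma). It was well above background on only 2 of 6 mimic scans, so the size of this fold rests partly on readings near background. Dysf, dysferlin, a membrane repair protein mutated in limb-girdle dystrophy, fell 3.16-fold (adjusted p = 0.00219, limma), with 0.87, 0.96 and 0.93 against 2.83 and 2.33. Des, desmin, the muscle intermediate filament, fell 2.49-fold (adjusted p = 0.0177, limma), a call lost in 4 of 21 alternatives, among them leaving out mimic array 1 or mimic array 2. Krt19, an intermediate filament protein that can bind dystrophin, rose 4.15-fold (adjusted p = 0.000385, limma), with 3.67, 3.70 and 3.73 against 1.51 and 1.79.

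Of 10 laminin-binding and costameric integrin genes, the other laminin link of muscle, 2 fell and 1 rose. Itgb1bp2, melusin, a muscle protein that binds the integrin beta-1 tail, was well above background on 4 of 4 scramble scans and 0 of 6 mimic scans, at least 2.05-fold lower (adjusted p = 0.000361, limma). It passed the filter through the scramble scans alone, and its mimic readings entered the fit at background level. Itga7, the main laminin-binding integrin of muscle, fell 1.68-fold (adjusted p = 0.0467, limma), with 6.97, 6.99 and 7.02 against 7.66 and 7.82, and was not called in 8 of 21 alternatives, among them leaving out any 1 mimic array or scramble array 2. Itgb4, the laminin receptor subunit of epithelial hemidesmosomes, was above background on 6 of 6 mimic and 0 of 4 scramble scans, at least 3.70-fold higher (adjusted p = 0.000361, limma), and it passed the filter through the mimic scans alone.

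**Figure D4:**
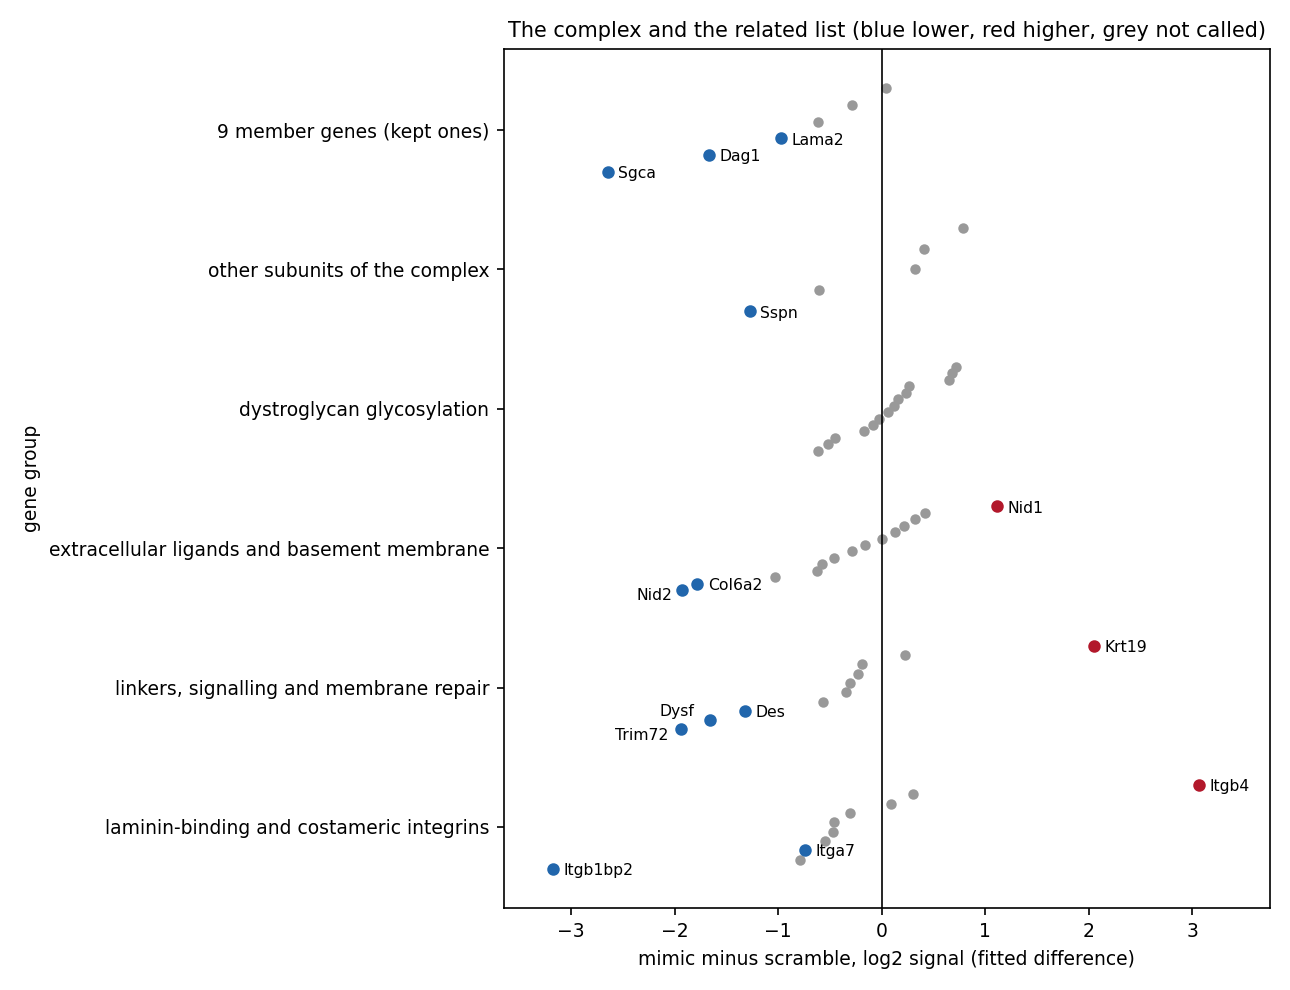
Fitted difference in log2 signal, mimic minus scramble, of the 6 tested complex genes and of 53 tested genes of the related list, one point per gene, by group. Blue points are called lower, red points higher, and grey points are not called; the points of Itgb1bp2 and Itgb4 rest on 1 group below background. Sgca lies at −2.65, Dag1 at −1.67 and Lama2 at −0.97, and Krt19 at 2.05.

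Markers of muscle differentiation moved with these genes. Of 12 myotube genes 10 were lower, beside 3.87% of all genes. Myog, the myogenic factor of differentiation, led with a difference of −7.08, while Ckm at −0.59 and Myh8 at −0.47 did not pass the test. Casq2, among these 10, passed the filter through its scramble scans alone, since no mimic scan exceeded background. Of the 6 mimic scans, Tnnc1 exceeded background on 1, Tnni1 on 3 and Myog on 5. The sizes of the differences of Casq2, Tnnc1, Tnni1 and Myog thus rest wholly or partly on readings near background. The summed linear signal of the 12 myotube genes is in units of the scan's 75th percentile. It was 39.9 to 46.7 on the mimic arrays and 575 to 587 on the scramble arrays. The scramble cells, labelled myoblasts, thus carried RNA of differentiating muscle. Of 6 tested myoblast markers 5 were lower, beside the same 3.87% of all genes, with sums of 204 to 209 against 375 to 421. Des and Itga7 stand in both this list and the related list. Pax7 was above background on no scan.

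No tested marker of another cell type was called lower. Of 5 fibroblast markers, 1 (Lum) was called higher, beside 5.86% of all genes. The other 4 did not pass the test and were split in direction. Col3a1 and Dcn differed by 0.46 and 0.82, and Col1a1 and Pdgfra by −0.46 and −0.14. The fibroblast sums of 351 to 383 against 215 to 303 come mostly from Col3a1 and Dcn, not from Lum. Of 6 leukocyte markers 3 were tested and Cd68 was higher, with sums of 47.2 to 51.9 against 17.1 to 17.4, while the defining genes Ptprc, Lyz2 and Tyrobp were above background on no scan. Of 4 markers each, endothelial and Schwann cells had 1 tested gene that did not pass, and the 4 epithelial markers were above background on no scan. The part of any of these in the changes of Sgca, Dag1 and Lama2 was not tested.

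For each tested gene the most similar patterns were taken as the smallest root mean square difference of centred log2 signal over the 5 arrays, among 10441 genes. For Sgca these were Dll1 at 0.08, Acta2 at 0.12 and Acta1 at 0.13, and for Dag1 they were Sorcs2 at 0.07, Dmpk at 0.07 and Myorg at 0.09. For Lama2 they were Mmgt1, Qser1 and Amacr, each at 0.06, and for Sgcb they were L1td1, Sypl and Diras2. Utrn was nearest to Aktip, Gtf2h3 and Brwd3, and Sgcd to Fam234a, Ubb and Ilrun. The 5 arrays share 1 slide and fall into 2 groups, so the difference between the groups is part of this likeness.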

How the data were processed

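All 10 samples of C2C12 cells, 6 labelled mimic and 4 labelled scramble, were read from the deposited scanner files, which hold linear spot intensities already corrected for background by Agilent Feature Extraction. Its version is 12.0.0.7 per the file headers and 10.7.3.1 per the submitters' processing notes. The headers name mm9. The deposited series matrix holds linear intensities whose between-array step no source used here names, and served as an alternative only.

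Log2 of the processed signal, averaged over the spots of a probe without those marked as outliers, was centred on the 75th percentile of all non-control probes of the scan. Probes well above background on at least 4 of 10 scans were kept (17455), and the probe with the highest mean stood for its gene (13678 genes). The scans of an array position were averaged, and mimic was fitted against scramble in limma 3.58.1 (lmFit, eBayes; R 4.3.3), with Benjamini-Hochberg adjustment and a threshold of 0.05. The procedure was tested on simulated data with 3 and 2 arrays, in which 200 of 13678 genes were changed. It recovered 0.37% of 1.5-fold, 8.73% of 2-fold and 87.9% of 4-fold changes, and 5.9% of its calls were false. Most 2-fold changes were missed in that simulation. More genes were called in the real data (1332), which makes the cut-off on p less strict there, so these shares do not carry over directly. With so few arrays, a gene that did not pass the test is still not shown to be unchanged.

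Same-numbered mimic and scramble samples did not deviate together, with correlations of their deviations between −0.28 and 0.19, and were not taken as pairs. Named are all 9 members, called genes of the related list and the 3 genes most like each tested member. The results of some genes of that list are counted in its totals but not reported here, and Pomt1 and the subunits that were not called were named after their values were seen. The members and lists were chosen with earlier results of these data known. A probe that carries an older synonym of Sgcd was not used, since its name in the files is not a member's. Alternatives covered scaling, background, filter, probe choice, scan day, slide row, replicate block, series matrix and each array left out.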

Additional observations from a re-analysis of the deposited data

Results flagged for a closer look

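In 1 of the 28 groups of labelled samples examined for a sample far from the others, 1 stood apart. The Sgcd probe at transcript position 653 read 1.30 on the mimic sample numbered 4, the single scan on which it was well above background, while the other 5 mimic samples lay between −2.37 and −1.46. The gap was 0.751 of the group's range. The other scan of the same array, the mimic sample numbered 1, read −1.58. The rule that set the flag marks about 1 in 20 groups by chance. That rate takes the samples of a group as independent, which 2 scans of 1 array are not.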

How the results depend on the processing

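Of the 126 values of single members under 21 alternatives, 114 kept their direction and their side of the threshold. Sgca was called in all 21, and Dag1 in all but the fit without a filter on dim probes (−1.67, adjusted p = 0.0521, limma), where 34608 names were tested in place of 13678. The 3 called members became 1 without a filter, and 2 to 4 with 1 array left out. Sgcb was also called when the 10 samples were counted as labelled (adjusted p = 0.0224, limma), which counts scans of 1 array as replicates. The Sgcd difference of 0.04 turned to −0.10 with the percentile over probes above background on all scans, to −0.047 on the second scan day, and ranged from −0.024 to 0.10 with 1 array left out. The related list had 13 called genes, 8 after scaling to the array median, 8 without a filter, 28 with 10 samples as labelled and 8 to 25 with 1 array left out. All genes gave 1332 calls, 761 after scaling to the array median, 407 without a filter, 4154 with 10 samples as labelled, 810 with slide row as a block and 641 to 3671 with 1 array left out. The high end came without scramble array 1, where the lone scramble array was assumed to vary like the mimic arrays. With the replicate block 2336 genes were called, and Sgca, Dag1 and Lama2 were the members called. The samples share only a number, and no scramble sample correlated best with the mimic sample of its own number. Apart from these constructions, the causes were not tested. For Dmd, Sntb1 and Dtna, signal near background limits what can be said.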
